A study of Homo sapiens with 3 samples.

Results

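The S100 genes encode small EF-hand proteins that bind calcium and then dock onto partners such as annexins, myosin and receptors. Most lie side by side on human chromosome 1, next to the genes of the cornified envelope, and several are abundant in squamous epithelium. S100A8 and S100A9 pair to form calprotectin, a metal-binding antimicrobial complex, and S100A7 (psoriasin) is another antimicrobial member. Levels of 10 members, S100A2, S100A4, S100A6, S100A7, S100A8, S100A9, S100A11, S100A13, S100A14 and S100A16, were followed by looking up each symbol among the 23277 symbols of the expression tables, and all 10 were found.

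RNA sequencing had been done on CaSki cells, an established epidermoid cervical carcinoma line, in 3 groups of 1 library each. NANOG + siHDAC1 cells carried FLAG-tagged NANOG in the retroviral vector pMSCV and received an siRNA against HDAC1, a histone deacetylase. NANOG + siGFP cells carried the same FLAG-NANOG vector and received a control siRNA against GFP. Empty vector + siGFP cells carried pMSCV without an insert and received the GFP siRNA. NANOG is a transcription factor of pluripotent cells. The labels give the vector as its source here, and RNA from the vector and from the cells' own gene was not told apart. The labels do not say whether the cells were clones or pools, and HDAC1 siRNA without NANOG was not analysed here.

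Expression was given as FPKM, fragment numbers corrected for transcript length and library size. With 1 library per group no value has a replicate check, so no p-value, standard error or interval is given, and every difference below compares 2 libraries. NANOG stood at 325 FPKM in NANOG + siHDAC1, 298 FPKM in NANOG + siGFP and 0.0357 FPKM in empty vector + siGFP cells. HDAC1 stood at 12.8, 108 and 19.02 FPKM in the same libraries, so that the NANOG + siGFP library was high for HDAC1 and the NANOG + siHDAC1 library was lowest, also below empty vector cells. Fragment numbers behind the values are unknown. Values under 0.3 FPKM moved in steps. Their most frequent ratio was sought only close to 1. It was 0.982 for either NANOG library over the empty vector library and 1 between the NANOG libraries. A search limited in this way cannot show that relative depth was even. The labelled epithelial type had 7 of 8 markers at 1 FPKM or more in every library, the exception being TP63. Markers of other cells were low: fibroblast markers summed to 0.0617, 0.993 and 0.0826 FPKM in NANOG + siHDAC1, NANOG + siGFP and empty vector + siGFP cells, and endothelial markers to 0.493, 0.448 and 0.289 FPKM. Melanocyte markers summed to 0.773, 0.723 and 0.881 FPKM and neuronal and glial markers to 2.58, 2.90 and 2.82 FPKM. Among 9 myeloid markers, whose cells are a rich source of S100A8 and S100A9, MPO, ELANE and FCGR3B were listed at 0 in all libraries. The summed myeloid level was 58.0, 64.8 and 55.6 FPKM, to which CD68, a lysosomal protein that other cells also express, gave 53.5, 61.2 and 50.7 FPKM and CSF1R 3.85, 3.10 and 4.52 FPKM.

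The sequences that precede 4 members are shown because these genes carry the main contrasts: S100A9 and S100A8 are partners with very different levels, and S100A14 and S100A6 differed most between libraries. Each line gives the 250 bases before the transcription start, 5′ to 3′ on the gene's strand, from RefSeq (GRCh38.p14), matched by symbol. The expression values were made with hg19, so these positions are not theirs. Capitals mark TATAAA.
S100A9 (chr1:153357604-153357853, plus strand): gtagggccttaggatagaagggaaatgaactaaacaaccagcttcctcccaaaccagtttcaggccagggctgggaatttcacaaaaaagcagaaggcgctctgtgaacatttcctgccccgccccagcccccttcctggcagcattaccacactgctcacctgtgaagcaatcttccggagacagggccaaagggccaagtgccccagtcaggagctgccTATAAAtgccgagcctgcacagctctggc
S100A8 (chr1:153391074-153391323, minus strand): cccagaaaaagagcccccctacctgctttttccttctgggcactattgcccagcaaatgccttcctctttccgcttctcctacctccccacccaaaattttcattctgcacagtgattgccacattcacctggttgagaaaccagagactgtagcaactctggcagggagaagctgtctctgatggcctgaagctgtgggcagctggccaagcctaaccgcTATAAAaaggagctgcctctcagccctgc
S100A14 (chr1:153616326-153616575, minus strand): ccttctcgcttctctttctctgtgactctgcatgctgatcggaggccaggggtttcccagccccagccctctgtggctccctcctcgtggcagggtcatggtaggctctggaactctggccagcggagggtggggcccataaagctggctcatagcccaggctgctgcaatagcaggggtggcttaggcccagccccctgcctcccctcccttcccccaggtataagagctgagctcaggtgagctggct
S100A6 (chr1:153535992-153536241, minus strand): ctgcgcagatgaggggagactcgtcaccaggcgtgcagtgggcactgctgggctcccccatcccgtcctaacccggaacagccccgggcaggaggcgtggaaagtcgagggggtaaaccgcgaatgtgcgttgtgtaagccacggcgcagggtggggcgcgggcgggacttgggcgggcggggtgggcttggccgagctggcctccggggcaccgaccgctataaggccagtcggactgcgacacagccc

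RefSeq lists 3 starts for S100A8, and the one shown was chosen because its TATAAA sits as in S100A9, beginning 29 bases before the start. All 10 members had an entry in the promoter table, with 16 windows in all. TATAAA, searched on both strands, was in the windows of 5 members (S100A4, S100A7, S100A8, S100A9 and S100A13), or in 6 of 16 member windows, against 10.7% of all 35116 promoter windows of this length. Overlapping windows of S100A8 hold the same TATAAA, so the 6 windows have 5 separate places. In S100A7 it began 28 bases before the start, in S100A4 31 and in one S100A13 window 29. These 5 genes include both members near 0 and abundant ones, so the match did not sort the members by level. CCAAT was found in 3 members (S100A8, S100A13 and S100A16), or in 3 of 16 member windows, against 32% of all windows. The AP-1 motif TGANTCA was found in S100A2 alone, 52 bases before the start, or in 1 of 16 member windows, against 6.57% of all windows. The C/EBP motif TTGCNNCAA was in no member window, against 1.62% of all windows. The E-box CANNTG was in 9 members, all but S100A11, or in 14 of 16 member windows, against 61.8% of all windows. GC content was 70.0% for S100A6, 63.2% for S100A14, 55.6% for S100A9 and 53.2% for the S100A8 window shown, with a median of 58% over all windows. Which start the cells used was not measured.

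The 10 members spread over more than 3 orders of magnitude. In every library, 6 of them were above 90 FPKM, S100A4 and S100A14 lay between 1 and 5 FPKM, and S100A7 and S100A8 were below 0.3 FPKM. Those last 2 were below the filter of a mean of 1 FPKM over the 3 libraries, which 8 members and 11406 genes in all passed. All 8 were at 1 FPKM or more in every library, so none passed through 1 group alone.

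**Figure D1:**
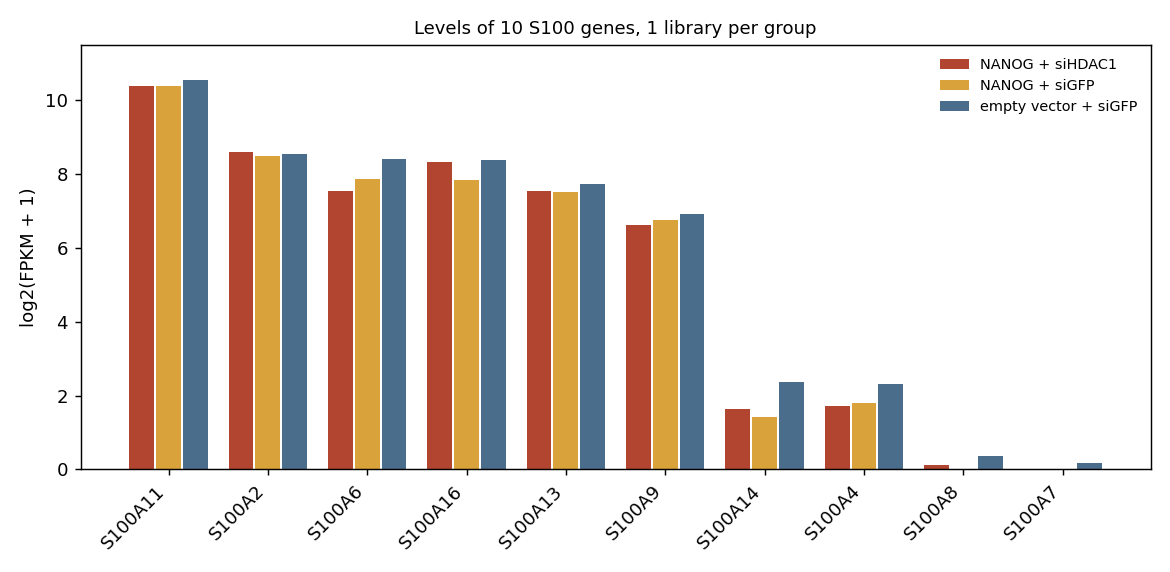
Level of each S100 gene as log2(FPKM + 1), with 1 bar per library and no error bars because each group has 1 library. S100A11 is highest in every library, S100A2, S100A6, S100A16, S100A13 and S100A9 follow, S100A14 and S100A4 are low, and S100A8 and S100A7 are at or near 0.

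S100A11, an annexin A1 partner that keratinocytes express strongly, stood at 1330.4 FPKM in NANOG + siHDAC1, 1330.5 FPKM in NANOG + siGFP and 1483 FPKM in empty vector + siGFP cells. It ranked 39th, 40th and 41st among the 11406 genes of the same libraries and held 53.1%, 54.6% and 51.8% of the summed FPKM of the 10 members. That sum was 2504 FPKM in NANOG + siHDAC1, 2438 FPKM in NANOG + siGFP and 2861 FPKM in empty vector + siGFP cells, so it was lower in both NANOG libraries. In RNA of whole cultures, fewer cells that express a gene and less of its RNA per cell cannot be told apart. S100A2, a member typical of basal squamous epithelium, came next at 388, 357 and 370 FPKM, the narrowest spread of the 8 members on the log2 scale (0.12).

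The next places changed hands. S100A6, or calcyclin, was at 185 FPKM in NANOG + siHDAC1, 230 FPKM in NANOG + siGFP and 339 FPKM in empty vector + siGFP cells, lowest with NANOG and siHDAC1 together and highest in empty vector cells. S100A16, a widely expressed member whose first EF-hand binds calcium poorly, was at 317, 229 and 331 FPKM, low in the NANOG + siGFP library alone. The FPKM level of S100A6 over that of S100A16 was therefore 0.583 in NANOG + siHDAC1, 1.003 in NANOG + siGFP and 1.02 in empty vector + siGFP cells.

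S100A13, which takes part in the export of FGF1 and IL1A, was at 183 FPKM in NANOG + siHDAC1, 180.4 FPKM in NANOG + siGFP and 212 FPKM in empty vector + siGFP cells. S100A9 was at 96.4, 108 and 119 FPKM. Both were highest in empty vector cells, as were 7 of the 8 members, all but S100A2. In RefSeq S100A13 overlaps S100A1 and CHTOP, both on the other strand. How strand was used in counting is not given. S100A1 was at 0.618, 0.694 and 0.471 FPKM and CHTOP, a chromatin target of arginine methylation, at 35.8, 36.2 and 33.1 FPKM in the same libraries, so both were below S100A13, and any part of CHTOP reads in its value was not tested.

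S100A14, an epithelial member linked to cell adhesion and invasion, was at 2.11 FPKM in NANOG + siHDAC1, 1.65 FPKM in NANOG + siGFP and 4.17 FPKM in empty vector + siGFP cells. S100A4, or metastasin, which binds nonmuscle myosin, was at 2.28, 2.50 and 3.95 FPKM. In RefSeq S100A4 overlaps S100A5 on the same strand, and S100A5 was at 0.551, 0.733 and 1.62 FPKM, also highest in empty vector cells, so that how reads were divided between them makes the S100A4 value uncertain. S100A14 and S100A4 swapped rank, with S100A14 the higher of the pair in empty vector cells and the lower in both NANOG libraries. S100A14 and S100A16 are neighbours on the same strand, yet S100A16 was at 150.5, 138.5 and 79.3 times the FPKM level of S100A14.

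S100A9 was present almost without its calprotectin partner. S100A8 was at 0.0921 FPKM in NANOG + siHDAC1, listed at 0 in NANOG + siGFP and at 0.281 FPKM in empty vector + siGFP cells. S100A9 was thus 1047 times as high as S100A8 in NANOG + siHDAC1 and 424 times as high in empty vector + siGFP cells, where only these very low S100A8 values set the ratio. S100A7 had no listed value above 0 with NANOG under either siRNA, and its empty vector + siGFP value was 0.121 FPKM. S100A7 and S100A7A are near-identical in sequence, so a value of either is uncertain, and S100A7A was listed at 0 in all 3 libraries. The empty vector value of S100A8 was 3.05 times that of NANOG + siHDAC1. Once the low-value ratio of 0.982 was taken out it was 2.99 times, within 1% of a ratio of 3 to 1. That low-value ratio was sought only close to 1. Values this low may rest on single fragments, and no difference is drawn from them.

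The first comparison, NANOG + siGFP against empty vector + siGFP, bears on what NANOG expression went with. Differences are of log2(FPKM + 1), which understates change in genes as low as S100A14 and S100A4, and a gene was counted when it differed at least 1.5-fold on this scale (0.58). S100A14 was the one member counted, lower by 2.52-fold in FPKM (1.65 FPKM in NANOG + siGFP against 4.17 FPKM in empty vector + siGFP; log2 difference -0.96). Among all genes 5.27% were at least 1.5-fold lower and 3.47% at least 1.5-fold higher, and 1 of 8 members is too few to be read against those shares. No member was 2-fold lower on this scale, as 1.22% of all genes were.

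All 8 members were lower in NANOG + siGFP by some amount, where 50.8% of all genes were. Their median log2 difference was -0.37, against -0.01 for all genes. All 8 differences use the same 2 libraries, and the members were chosen with earlier results of these data known. Their shared direction and median are therefore no independent evidence of a difference from all genes. The same limit holds where members or lists are set against all genes below. S100A6 (-0.56), S100A16 (-0.53) and S100A4 (-0.50) lay just inside the 1.5-fold line, and S100A6 passed it once libraries were scaled to TPM (-0.60). S100A4 passed it with a pseudocount of 0.1 FPKM (-0.64). Only 1.39% of all genes were as low as S100A14 in this difference or lower, 6.02% as low as S100A6, 6.72% as low as S100A16 and 7.54% as low as S100A4. S100A13 (-0.23), S100A11 (-0.16), S100A9 (-0.14) and S100A2 (-0.05) lay in the bulk of genes.

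**Figure D2:**
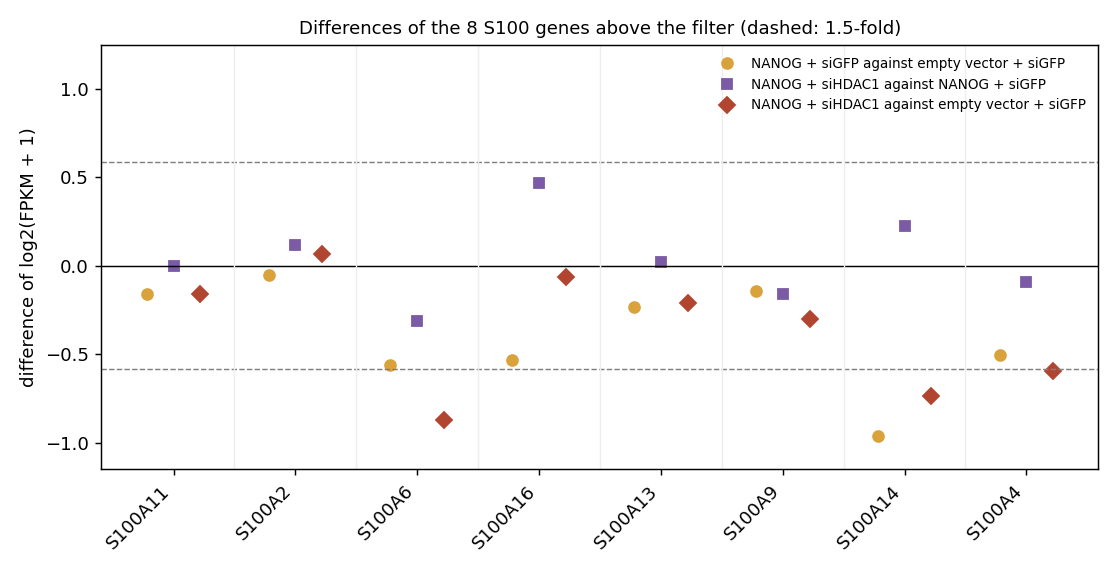
Difference of log2(FPKM + 1) for the 8 S100 genes that passed the filter, ordered by level in empty vector cells, with 1 point per comparison and dashed lines at 1.5-fold. S100A14 passes the lower line in the first comparison, no member passes a line for siHDAC1 against siGFP, and S100A6, S100A14 and S100A4 pass the lower line for NANOG + siHDAC1 against empty vector + siGFP.

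The second comparison, NANOG + siHDAC1 against NANOG + siGFP, asked what HDAC1 siRNA went with in NANOG cells. No member differed at least 1.5-fold in either direction, where 1.43% of all genes were lower and 0.684% higher by that much. The members divided evenly, with 4 higher and 4 lower (46.6% of all genes were lower), and a median log2 difference of 0.01 equal to the 0.01 of all genes. S100A16 was the highest at 0.47, and 1.41% of all genes were as high or higher. S100A14 stood at 0.23 and S100A2 at 0.12. S100A6 was the lowest at -0.31, and 6.66% of all genes were as low or lower. S100A9 (-0.16), S100A4 (-0.09), S100A11 (0.00) and S100A13 (0.02) differed little.

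Small RNA symbols held 16.2% of the summed FPKM in NANOG + siHDAC1 and 23.3% in NANOG + siGFP cells, and under TPM, where each library sums to the same total, the median over all genes was 0.18. S100A16 then stood at 0.65, past the 1.5-fold line, while S100A4 (0.04), S100A9 (0.02) and S100A11 (0.18) turned from lower to higher. Against that median S100A16, S100A14 (0.40) and S100A2 (0.30) were above, and S100A6 (-0.13), S100A9 and S100A4 were below. S100A13 (0.20) and S100A11 lay close to it. In the difference of log2(FPKM + 1), 11.3% of all genes were as high as S100A14 or higher. Since this comparison shares the NANOG + siGFP library with the first, a library value of S100A16 that was low there would appear in both.

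The third comparison set NANOG + siHDAC1 against empty vector + siGFP. Here 3 of 8 members were at least 1.5-fold lower and 0 higher, beside 3.46% lower and 1.78% higher among all genes. As in the first comparison, 8 members are too few to be read against those shares. S100A6 differed most, at 185 FPKM in NANOG + siHDAC1 against 339 FPKM in empty vector + siGFP (log2 difference -0.87, 1.83-fold lower in FPKM). Only 1.2% of all genes were as low in this difference or lower. S100A14 followed at -0.74 and S100A4 at -0.60, just past the line. S100A4 no longer passed it under TPM (-0.54) or with libraries set to the same upper quartile (-0.583), which left 2 members. A filter at 5 FPKM dropped S100A14 and S100A4, both low genes, and left S100A6 alone. No member was 2-fold lower on this scale, as 0.824% of all genes were, and 7 of 8 were lower by some amount, as 50.2% of all genes were. Since this comparison shares the empty vector library with the first, values that were high there would appear in both counts. S100A16 (-0.06, or 0.07 under TPM) was near its empty vector level, S100A2 (0.07) was the one member higher, and S100A9 (-0.30), S100A13 (-0.21) and S100A11 (-0.16) were somewhat lower. The median was -0.25 over the members and 0.00 over all genes.

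Set side by side, the members were sorted by the library where they were lowest, read from single libraries. S100A6, S100A9 and S100A4 were lowest in NANOG + siHDAC1 and highest in empty vector cells. Under TPM S100A9 (0.02) and S100A4 (0.04) were slightly higher in NANOG + siHDAC1 than in NANOG + siGFP. Both were still below the TPM median over all genes (0.18). With the same upper quartile S100A9 (-0.17) and S100A4 (-0.10) stayed lower, so only S100A6 was lower under every scaling. S100A14, S100A16, S100A13 and S100A2 were lowest in NANOG + siGFP, but S100A13 was nearly even between the NANOG libraries (0.02). S100A2 spanned only 0.12 and was highest in NANOG + siHDAC1, so these members shared no profile beyond their lowest library. S100A11 had nearly one FPKM value in both NANOG libraries, the siHDAC1 library being lower by less than 1 FPKM. Under TPM it was lowest in NANOG + siGFP (0.18 for siHDAC1 against siGFP), where the median over all genes was also 0.18.

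**Figure D3:**
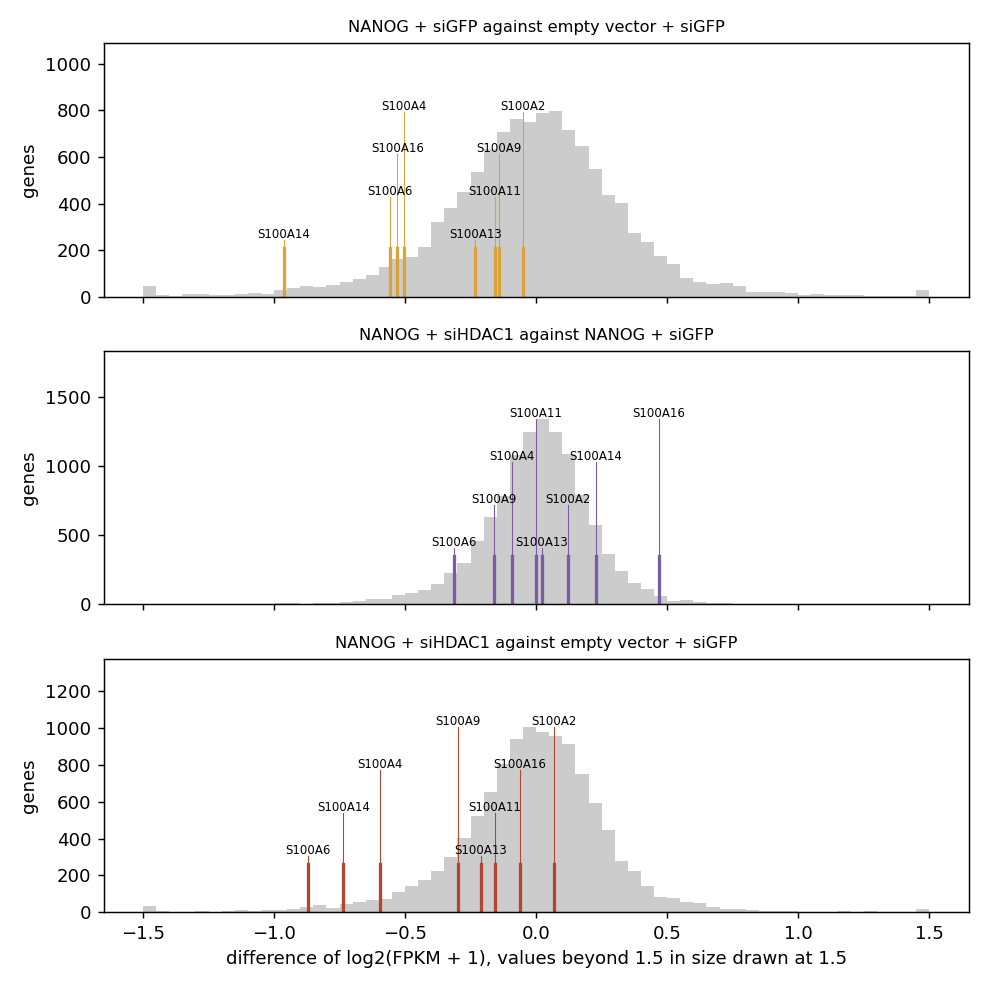
Histograms of the log2(FPKM + 1) difference over the 11406 genes that passed the filter, 1 panel per comparison, with coloured lines at the 8 S100 genes. In the top panel all 8 lie left of 0, with S100A14 at -0.96; in the middle panel they lie on both sides, with S100A16 at 0.47; in the bottom panel S100A6 lies farthest left at -0.87.

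The genes most like S100A14, the member with the widest span (0.96 on the log2 scale), were sought by the distance between their pair of log2 differences in the first 2 comparisons. Among 8689 genes with at least 5 FPKM in their highest library, PRKCE (a protein kinase C), CAMK2N1 (an inhibitor of CaM kinase II), ZBED2 (a zinc-finger protein), HMHA1 and ADM (adrenomedullin) were nearest. CAMK2N1 was at 46.2 FPKM in NANOG + siHDAC1, 38.6 FPKM in NANOG + siGFP and 75.2 FPKM in empty vector + siGFP cells, a distance of 0.03. PRKCE, at 2.62, 2.11 and 5.01 FPKM, reached 5 FPKM in empty vector cells alone, so its entry among the candidates rested on the library where it was high. This likeness rests on 3 libraries and on log2(FPKM + 1), which understates change in S100A14 more than in abundant genes such as CAMK2N1. In FPKM S100A14 was 2.52-fold lower in NANOG + siGFP than in empty vector + siGFP. At 4.17 FPKM in its highest library, S100A14 itself would not have been a candidate.

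Of 12 other genes with an S100 name, 3 passed the filter, and none of these 3 differed at least 1.5-fold in any comparison. Among all genes 0.684% to 5.27% did so, depending on comparison and direction, and 3 genes are too few to be read against those shares. S100A10, the annexin A2 partner, was nearly even at 837 FPKM in NANOG + siHDAC1, 851 FPKM in NANOG + siGFP and 845 FPKM in empty vector + siGFP cells. S100A3, a hair cuticle member, was at 9.09, 7.33 and 10.3 FPKM. S100PBP, which encodes an S100P-binding protein and not an S100 protein, was at 4.66, 3.87 and 5.36 FPKM. S100A7A, S100A7L2, S100B, S100G and S100Z were listed at 0 in all 3 libraries. Below the filter, S100A5 and S100P lay past the lower 1.5-fold line against empty vector + siGFP. The log2 difference of S100A5 was -0.60 for NANOG + siGFP and -0.76 for NANOG + siHDAC1. That of S100P was -0.77 for both. S100A1 and S100A12, also below the filter, did not pass the line. Genes below the filter were not counted, and values this low are uncertain.

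Partners and receptors of S100 proteins were measured in 14 of 19 cases. For NANOG + siGFP against empty vector + siGFP, 2 were at least 1.5-fold lower and 0 higher, beside 5.27% lower and 3.47% higher among all genes, with a median log2 difference of -0.06. The heavy chain of nonmuscle myosin, MYH9, to which S100A4 binds, was at 283 FPKM in NANOG + siHDAC1, 241 FPKM in NANOG + siGFP and 413 FPKM in empty vector + siGFP cells (-0.78 in this comparison). AHNAK, a giant scaffold that binds the annexin A2 and S100A10 complex, differed by -0.66. ANXA6, another annexin, stood at 0.44. ANXA2 was at 2133, 2191 and 2621 FPKM (-0.26), so its FPKM level over that of S100A10 was 2.55 in NANOG + siHDAC1, 2.57 in NANOG + siGFP and 3.10 in empty vector + siGFP cells.

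With siHDAC1 against siGFP in NANOG cells, 0 of the 14 partners differed by 1.5-fold, beside 1.43% lower and 0.684% higher among all genes. Their median was 0.05. Among the largest were IL1A, whose export involves S100A13 (0.41), ANXA6 (-0.38) and AHNAK (0.31), and ANXA2 stood at -0.04. In the third comparison 0 of 14 differed by 1.5-fold, beside 3.46% lower and 1.78% higher among all genes. The partners had a median of -0.05, with MYH9 (-0.55), IL1A (0.40), AHNAK (-0.36) and ANXA2 (-0.30) at the ends. The receptors AGER and TLR4, which S100A8 and S100A9 can engage, and CD36 were below the filter. BSG, basigin, another receptor of S100A9, was abundant at 260 FPKM in NANOG + siHDAC1, 250.1 FPKM in NANOG + siGFP and 271 FPKM in empty vector + siGFP cells, and was named after its values were seen.

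**Figure D4:**
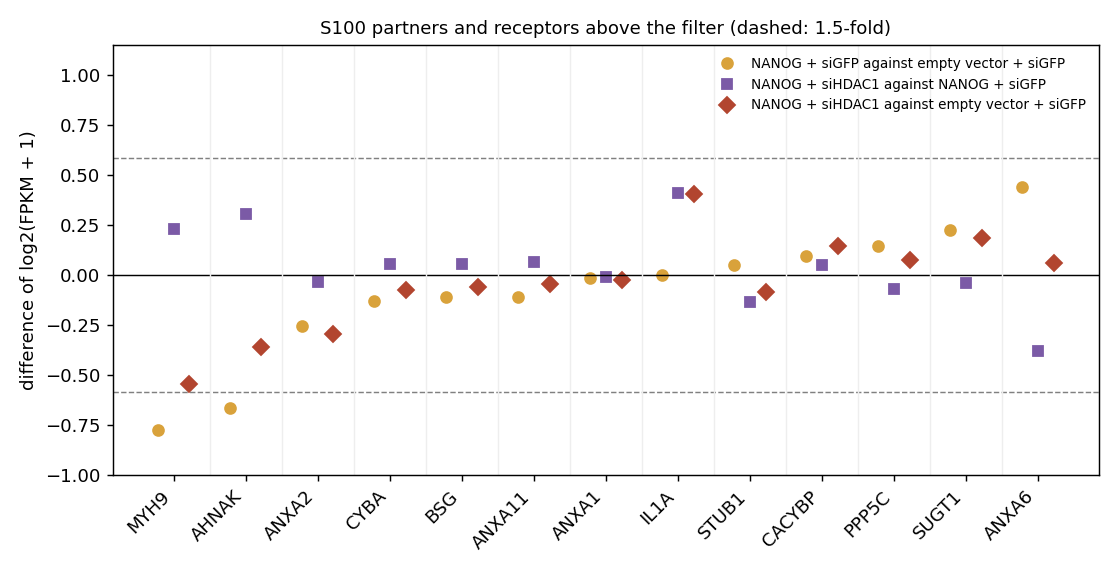
Difference of log2(FPKM + 1) for the S100 partners and receptors that passed the filter and are reported here, with 1 point per comparison and dashed lines at 1.5-fold. MYH9 (-0.78) and AHNAK (-0.66) lie below the lower line for NANOG + siGFP against empty vector + siGFP, and no gene drawn passes a line in the other 2 comparisons.

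Other EF-hand calcium sensors, taken as relatives outside the family, were measured in 14 of 16 cases, and none differed at least 1.5-fold in any comparison. Among all genes 0.684% to 5.27% did so, depending on comparison and direction, so 0 of 14 is near those shares. For NANOG + siGFP against empty vector + siGFP, 11 were lower and 3 higher, where 50.8% of all genes were lower. Their median log2 difference was -0.13, against -0.01 for all genes. Among the widest were PDCD6 (-0.38), a partner of the ESCRT adaptor ALIX, RCN2 (0.30), a reticulocalbin, and CAPN1 (-0.28), a calpain. In the second comparison the median was -0.02, with EFHD2 at 0.25, and in the third it was -0.04, with CAPN1 and SRI at -0.39 each.

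The chromosomal neighbours in the epidermal differentiation complex were mostly low, with 3 of 15 above the filter, which 11406 of the 23277 symbols passed. Of the 15, 3 were listed at 0 in all libraries. Involucrin, IVL, a cornified envelope precursor, was at 6.33 FPKM in NANOG + siHDAC1, 4.61 FPKM in NANOG + siGFP and 10.2 FPKM in empty vector + siGFP cells. Its log2 difference was -0.99 for NANOG + siGFP against empty vector + siGFP, 0.39 for siHDAC1 against siGFP and -0.61 for NANOG + siHDAC1 against empty vector + siGFP. SPRR1B, a small proline-rich envelope protein, went the other way at 3.36, 4.16 and 1.12 FPKM (1.29, -0.24 and 1.04). SPRR3 was at 1.46, 2.27 and 1.53 FPKM (0.37, -0.41 and -0.04). None of the 7 S100-fused-type genes of the filaggrin family passed the filter.

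Transcription factors linked to S100 genes were measured in 14 of 15 cases. None differed at least 1.5-fold between NANOG + siGFP and empty vector + siGFP (median -0.22), beside 5.27% lower and 3.47% higher among all genes. STAT3 stood at -0.52, CEBPA, a low gene (2.42 against 1.45 FPKM), at 0.48 and RELA at -0.38. In the second comparison 12 were higher and 2 lower, where 46.6% of all genes were lower. None passed 1.5-fold, beside 1.43% lower and 0.684% higher among all genes. The median was 0.22, against 0.01 for all genes. FOSL1 (0.40) and JUN (0.34), both of AP-1, KLF4 (0.38) and STAT3 (0.33) were highest. Against empty vector + siGFP, NANOG + siHDAC1 had FOSL1 past the line at 0.63, beside 1.78% higher and 3.46% lower among all genes. FOS stood at 0.51 but was low in both libraries (1.65 against 0.87 FPKM). JUN was at 0.44 and NFE2L2 at 0.28, with a median of 0.02 over the list.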

How the data were processed

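Per the labels' protocols, 2 ug of Trizol RNA went into stranded libraries. The submitters' processing notes name hg19, TopHat2 and Cufflinks, and their versions, the annotation and strand handling are not given there. Values in the deposited files are FPKM, 1 per symbol and library; the headers name no unit, and it was taken from the values and from Cufflinks. Groups came from the sample titles. Small RNA symbols (1626) were left out, and the 11406 genes whose mean over the libraries reached 1 FPKM were kept. Differences were taken as log2(FPKM + 1), with 1.5-fold as the line, and no test was made. The members and lists were chosen with earlier results of these data known. Named genes were the members, up to 4 per list and comparison with the largest difference, S100A10, ANXA2 and the 5 genes nearest S100A14. A few genes taken by this rule are left out of the text. Steps were tested on simulated data. Alternatives were other pseudocounts, filters, scalings, small RNAs kept and a 2-fold line. Python 3.11.15, numpy 2.4.6, pandas 2.3.3 and matplotlib 3.10.9 were used.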

Additional observations from a re-analysis of the deposited data

How the results depend on the processing

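No paired analysis was possible because each group had 1 library and no test was made, and no replicate could be left out. For NANOG + siGFP against empty vector + siGFP, 1 member at least 1.5-fold lower became 2 with a pseudocount of 0.1 FPKM and 2 under TPM, and 0 with a filter at 5 FPKM, which drops S100A14 and S100A4, and 0 with a 2-fold line; the filter at 5 FPKM gave a median of -0.19. For NANOG + siHDAC1 against NANOG + siGFP, TPM gave 1 member higher and a median of 0.19. For NANOG + siHDAC1 against empty vector + siGFP, 3 members lower became 1 with a filter at 5 FPKM and 0 with a 2-fold line, and TPM gave a median of -0.12 (0.13 over all genes). TPM and the upper quartile each left 2 members lower there, without S100A4 (-0.54 and -0.583). Pseudocounts of 0.5 FPKM, the upper quartile, a median ratio of 0, small RNAs kept and no filter left the other counts within 1.5 times and the medians within 0.1. Of 186 single member differences under alternatives, 22 moved by more than 0.1 and none that passed 1.5-fold changed sign. Shares of the summed member level were flatter on the log2 scale, with S100A11 at 19.8%, 19.9% and 18.9% in NANOG + siHDAC1, NANOG + siGFP and empty vector + siGFP cells. Unknown fragment numbers limit S100A7, S100A8, S100A4 and S100A14 most.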

Other observations

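Inflammatory genes that accompany S100A7 to S100A9 in inflamed skin were measured in 9 of 14 cases. For NANOG + siHDAC1 against NANOG + siGFP, 4 were at least 1.5-fold higher and 1 lower, beside 0.684% higher and 1.43% lower among all genes. The chemokine genes CCL20 (1.68) and IL8 (0.98) led, but CCL20 was low (6.15 against 1.24 FPKM). CSF2, which encodes GM-CSF, stood at 0.82 and was also low (5.72 against 2.80 FPKM). The keratin gene KRT6A was at -0.68, while S100A9 stood at -0.16. For NANOG + siGFP against empty vector + siGFP, 2 were lower and 2 higher by that much, beside 5.27% lower and 3.47% higher among all genes. LCN2, an iron-sequestering antimicrobial protein, was at 213 FPKM in NANOG + siHDAC1, 196 FPKM in NANOG + siGFP and 419 FPKM in empty vector + siGFP cells (-1.09), with CXCL1 at 0.77, KRT6A at 0.73 and KRT16 at -0.71. For NANOG + siHDAC1 against empty vector + siGFP, 4 were higher and 2 lower, beside 1.78% higher and 3.46% lower among all genes, with CCL20 at 1.42, CXCL1 at 1.37, IL8 at 1.19 and KRT16 at -0.97.

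Of 4 other S100 genes below the filter with values above 0, S100P, S100A5 and S100A12 were highest in empty vector cells and S100A1 was lowest there, at 0.618 FPKM in NANOG + siHDAC1, 0.694 FPKM in NANOG + siGFP and 0.471 FPKM in empty vector + siGFP cells. They were singled out after their values were seen. S100P was at 0.0954 FPKM in NANOG + siHDAC1, 0.0951 FPKM in NANOG + siGFP and 0.872 FPKM in empty vector + siGFP cells. Its empty vector value lay within 1% of 9 times either NANOG value once the low-value ratio of 0.982, sought only close to 1, was taken out. S100A5 was at 0.551, 0.733 and 1.62 FPKM. S100A12 was listed at 0 in NANOG + siHDAC1 and was at 0.108 FPKM in NANOG + siGFP and 0.221 FPKM in empty vector + siGFP cells.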
